A study of Mus musculus with 6 samples.

Results

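The 44 genes described here encode the machinery that copies DNA during S phase: the replicative helicase and its activators, the polymerases, the sliding clamp and its loader, the factors that finish and protect the new strands, and the enzymes that supply nucleotides. They were chosen by name and known role, with earlier results of these data known. All 44 were found by gene name among the 54532 genes of the deposited table. The cells were primary neurospheres, free-floating cultures of neural stem and progenitor cells, from C57BL/6 mouse embryos at E14.5. Spheres were collected on day 6 of culture in medium with EGF and bFGF (20 ng/ml each), 2% B27 and 0.2% BSA. The WT group had 3 libraries (numbered 3, 6 and 7), and the KO group had 3 (numbered 1, 2 and 3) from embryos with a conditional deletion of Ash2l driven by D6-Cre, a Cre line used for the embryonic dorsal cortex. Ash2l encodes a shared subunit of the COMPASS complexes, which methylate lysine residues of histone H3. The labels give the dorsal cortex as the source but the lateral ventricle walls as the tissue dissected, and do not state whether each library had its own embryo or culture. The p-values here cover the spread among the 6 libraries, technical or not.

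Copying of a chromosome starts at origins that were loaded with the inactive MCM helicase before S phase. Both the cyclin E kinase and Cdc7 with its partner Dbf4, then help trigger the addition of Cdc45 and the GINS complex, and the active helicase unwinds the strands. Polymerase alpha with primase lays down primers, polymerase epsilon extends the leading strand and polymerase delta the lagging strand, both held on DNA by the PCNA clamp. Many of the genes for these proteins are known targets of E2F transcription factors and are transcribed mainly around the start of S phase, so their mRNA is used as a sign of dividing cells. In neurosphere cultures, growth factors keep part of the cells dividing.

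Library totals ran from 16764480 to 21983659 reads, at which 3 reads equal 0.136 to 0.179 CPM (counts scaled to the library total). Ash2l itself had 13.1, 12.1 and 11.7 FPKM (counts scaled to gene length and library total) in WT 3, 6 and 7, and 9.96, 11.3 and 11.4 in KO 1, 2 and 3. The KO values were all below the WT values, but the difference did not pass the test (log2 fold change -0.24, SE 0.10, adjusted p = 0.119 by edgeR's quasi-likelihood test). These are counts over the whole gene, which also take in exons outside a deleted stretch, so they do not check the genotype. WT 3 stood apart from the other WT libraries: the first principal component, with 69.9% of the variance, placed it at -25.5, against -81.7 and -85.7 for WT 6 and WT 7 and 53.5 to 76.8 for the KO libraries. Markers of other cell types also moved between the groups, with none of the 64 markers at 0 in every library. Over all tested genes, 13.5% were called higher in KO and 15.5% lower by the same test. Of 12 astrocyte markers, 9 were lower in KO, with a summed level of 3886 to 11434 CPM in WT and 1704 to 2699 CPM in KO. Of 12 oligodendrocyte lineage markers, 8 were lower, with 3940 to 4729 CPM in WT and 1173 to 2172 CPM in KO. Of 12 neuron markers, 3 were higher, with 1440 to 2777 CPM in WT and 2874 to 4301 CPM in KO. This count changed with each library left out. Without WT 3, the WT library with the highest summed neuron markers, 10 were higher, against 20.2% of tested genes in that fit. Without any other library, 0 or 1 were. Markers of mural and meningeal cells summed to 403 CPM in KO 1 and to 25.5 to 61.3 CPM elsewhere, with 2 of 7 tested higher (1 to 3 with a library left out, the 1 without WT 6 or WT 7). None of 5 tested microglia markers passed, with summed levels of 4.09 to 10.8 CPM in WT and 7.11 to 25.7 CPM in KO, and 1 of 3 tested endothelial markers was lower (4.63 to 7.32 CPM in WT, 3.16 to 3.66 CPM in KO). Whether these marker changes come from cell makeup, and what part it has in the values below, was not tested.

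Replication fork genes were higher in the KO neurospheres at every step of fork assembly and copying. Of the 44 genes, 43 passed the test as higher and 0 as lower (edgeR's quasi-likelihood test, Benjamini-Hochberg adjusted p under 0.05 over 16606 tested genes), against a background of 13.5% of tested genes called higher and 15.5% called lower. Gins4 was the gene that did not pass. In all 44, each KO library lay above each WT library, which held for 23.5% of tested genes. The median log2 fold change was 2.05, or 4.13-fold, beside a median of 0.00 over all tested genes, and single genes ran from 0.35 for Gins4 to 3.82 for Rrm2. A total of 37 genes were called and over 2-fold higher, against 7.37% of tested genes. Of these 37, 23 exceeded 4-fold and 7 exceeded 8-fold. The shares of tested genes at these higher limits were not counted and cannot exceed 7.37%. In bulk RNA, a larger share of cells in S phase and more RNA per cell in S phase cannot be told apart.

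The 44 genes together took 0.0938%, 0.0738% and 0.0824% of all counts in WT 3, 6 and 7. In KO 1, 2 and 3 they took 0.297%, 0.367% and 0.282%. Per-gene counts ran from 24 to 7240 reads, so no gene was near the detection limit in any library. Within the KO group, KO 2 had the highest FPKM for 41 of the 44 genes and KO 3 the lowest for 32. Within WT, WT 3 was the highest for 34. How many of all tested genes had these orders was not counted, so the orders may not be particular to these genes. Leaving WT 3 out, 43 of 44 genes were called higher, against 20.2% of tested genes in that fit, with a median log2 fold change of 2.14. Leaving out KO 1, the library with the highest summed mural and meningeal markers, 43 were called and the median was 2.09. In that fit, 1490 of 17159 tested genes were called higher.

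**Figure D1:**
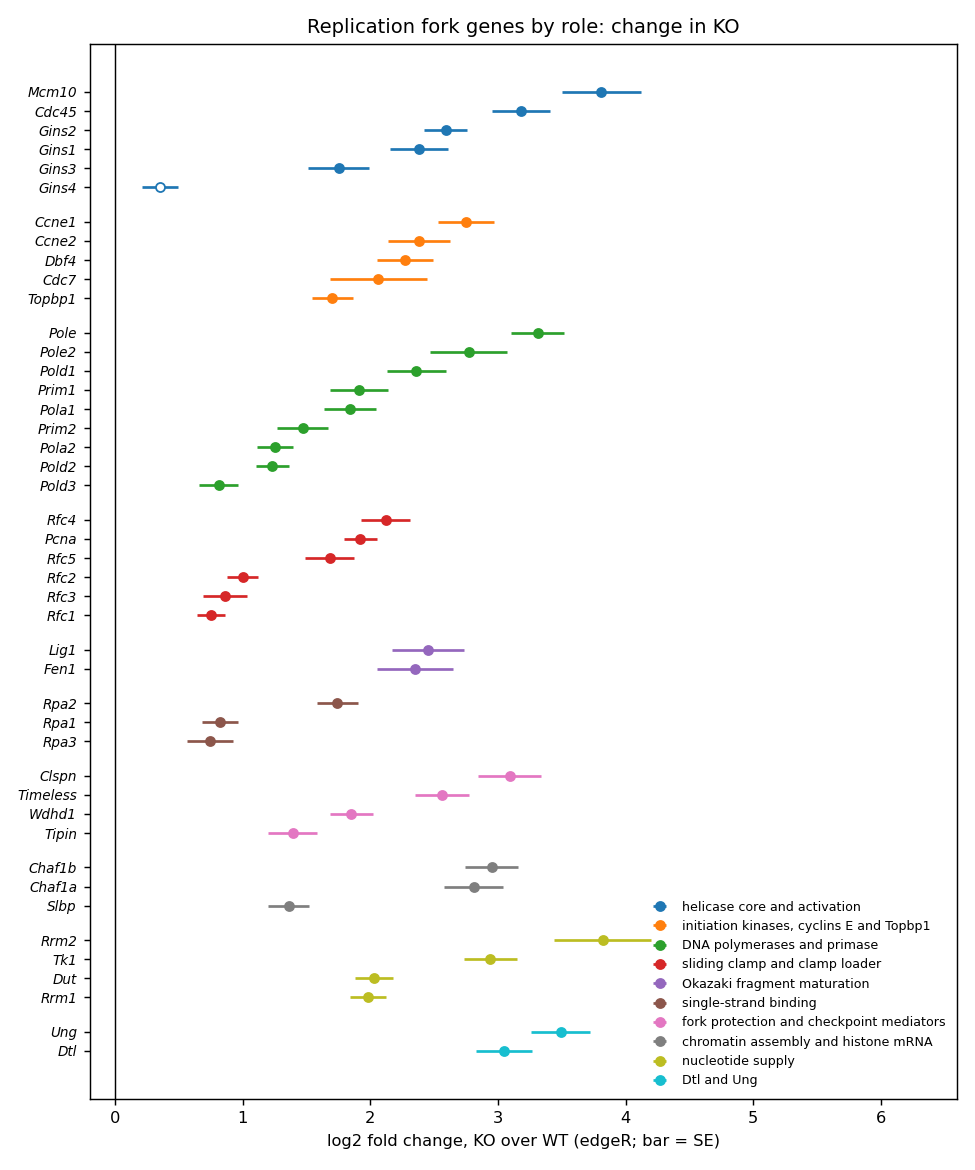
Log2 fold change of KO over WT (horizontal axis) for each of the 44 replication fork genes, grouped by role in colours, with bars for the SE from 3 WT and 3 KO libraries; the open point, Gins4, did not pass the test. All points lie right of 0, from 0.35 for Gins4 to 3.82 for Rrm2.

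Levels per gene length spread widely over the machinery. Mean FPKM in WT ran from 0.405 for Mcm10 to 36.2 for Pcna, with a median of 3.12, and in KO from 3.41 for Fen1 to 143 for Pcna, with a median of 11.8. The Fen1 level is uncertain because other genes overlap it. A total of 8 genes were under 1 FPKM in WT (Mcm10, Pole, Pole2, Fen1, Clspn, Chaf1a, Dtl and Ung), and 0 were in KO. Pcna was the most abundant in both groups, and the distance from the highest to the lowest mean level was 89.4-fold in WT and 41.8-fold in KO.

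**Figure D2:**
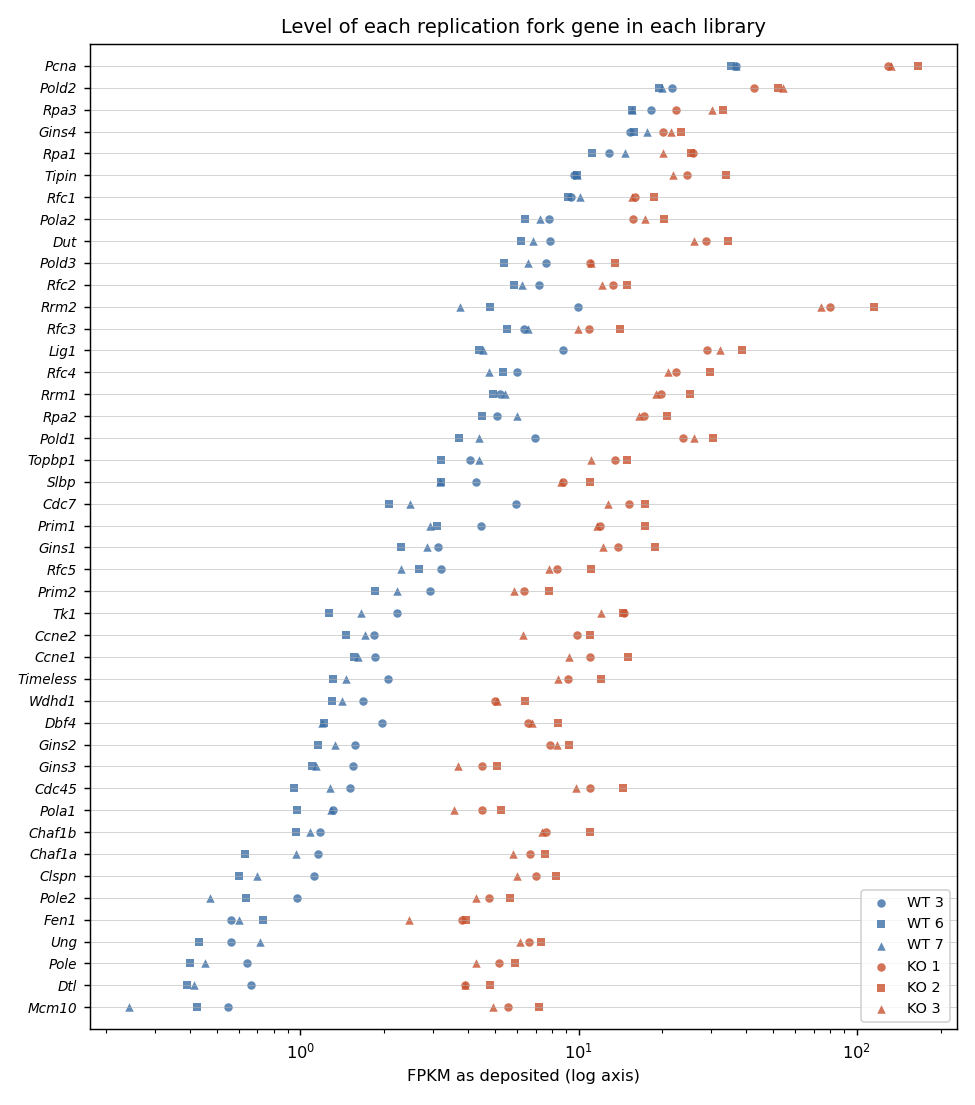
FPKM of each of the 44 genes (rows, ordered by mean WT level) in each library on a log axis, with WT in blue and KO in orange and a marker shape for each library. In each row the 3 KO points lie right of the 3 WT points. The fold change is smallest for Gins4 and largest for Rrm2 and Mcm10.

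Promoter windows of 300 bases, from 250 before to 50 after the RefSeq start, were found for 36 of the 44 genes in the RefSeq table for GRCm38.p6, the same assembly as mm10. The windows of 4 genes are printed because they pair different motif content with different changes. Dtl and Pola1 hold 2 and 4 matches to E2F motifs and rose 8.29-fold and 3.59-fold, Rfc1 holds 2 and rose 1.68-fold, and Mcm10 holds 0 and rose 14.1-fold. The Mcm10 window ends in ttggcg, which begins the searched spelling TTGGCGC, so its 0 may come from the window edge. Capitals mark the E2F matches, and each window is given 5′ to 3′ on the strand of its gene, which is the minus strand for all of these.
Dtl, chr1:191575495-191575794: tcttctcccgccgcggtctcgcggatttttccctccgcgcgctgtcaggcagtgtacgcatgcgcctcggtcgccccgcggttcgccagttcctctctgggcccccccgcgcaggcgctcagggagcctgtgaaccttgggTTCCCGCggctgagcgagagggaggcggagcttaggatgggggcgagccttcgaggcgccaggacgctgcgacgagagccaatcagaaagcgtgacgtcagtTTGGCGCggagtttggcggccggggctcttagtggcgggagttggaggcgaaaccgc
Pola1, chrX:93632106-93632405: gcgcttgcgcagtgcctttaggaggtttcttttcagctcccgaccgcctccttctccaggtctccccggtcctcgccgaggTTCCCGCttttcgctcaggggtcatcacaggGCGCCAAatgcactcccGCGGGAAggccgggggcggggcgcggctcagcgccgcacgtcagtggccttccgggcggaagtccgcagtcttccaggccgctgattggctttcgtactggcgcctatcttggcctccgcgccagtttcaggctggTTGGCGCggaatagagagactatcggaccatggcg
Rfc1, chr5:65335590-65335889: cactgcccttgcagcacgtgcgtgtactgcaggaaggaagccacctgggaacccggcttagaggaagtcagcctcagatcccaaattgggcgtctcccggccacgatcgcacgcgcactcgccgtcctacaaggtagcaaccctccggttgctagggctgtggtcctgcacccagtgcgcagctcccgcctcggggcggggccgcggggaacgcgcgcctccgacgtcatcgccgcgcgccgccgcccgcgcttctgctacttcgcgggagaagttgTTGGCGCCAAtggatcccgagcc
Mcm10, chr2:5012742-5013041: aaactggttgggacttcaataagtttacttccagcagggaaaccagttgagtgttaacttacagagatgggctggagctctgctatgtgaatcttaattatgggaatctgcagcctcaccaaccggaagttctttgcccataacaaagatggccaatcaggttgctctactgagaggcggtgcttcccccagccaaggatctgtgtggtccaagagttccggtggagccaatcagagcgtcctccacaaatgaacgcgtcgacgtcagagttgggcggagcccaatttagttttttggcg

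The E2F search took 4 spellings on both strands, which were TTCCCGC as the first, TTGGCGC as the second, TTCGCGC as the third and TTGCCGC as the last. Of the 36 windows, 20 (55.6%) held at least 1 match, against 17.1% of the 11509 windows of tested genes and 11.4% of all 20484 windows. Counted from the RefSeq start at 0, matches began at -109 and -7 in Dtl, at -169, -138, -121 and 15 in Pola1, and at 27 and 30 in Rfc1, where the matches overlap as a palindrome. Rfc3, Topbp1, Wdhd1, Chaf1a and Chaf1b also held 2 each, and the window of Rrm2, the gene with the largest change, held 1 at -235. The windows of Pcna, Ung and Cdc45 held 0, which says only that these letters are not in the window. Presence of a match did not go with a larger change: the median log2 fold change was 1.94 over the 20 genes with a match and 2.31 over the 16 without, with ranges of 0.74 to 3.82 and 0.82 to 3.81. Over the 31 windows whose first 30 bases after the start were found in a GENCODE transcript of the gene, 19 (61.3%) held a match, and the medians were 1.91 with and 2.42 without. The window of Timeless, counted as without a match, lies 6001 bases from the start in the deposited table, and leaving it out gave medians of 1.94 and 2.27. Mcm10, whose window ends within a possible match, was also counted as without.

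The other motifs searched were in shares nearer to those of tested genes. CCAAT, the letters bound by NF-Y, was in 50% of the 36 windows and 38.7% of tested windows, and the GC box GGGCGG, bound by Sp1, in 72.2% and 64.4%. TTTGAA, the cell cycle homology region (CHR) that marks many genes of G2 and mitosis, was in 13.9% of the windows and 11.3% of tested windows. It was in 76% of 25 windows of mitotic genes, of which 20% held an E2F match. Of 14 windows of origin licensing factors, 64.3% held an E2F match, and of 38 windows of other fork and S-phase genes, 42.1% did. Of 17 windows of repair and mitochondrial counterparts, 17.6% held one. Matches can overlap, since a CCAAT box next to GCGCCAA, or GGGCGG next to GCGGGAA, shares letters with the E2F match. A match describes letters only, and binding was not measured here.

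**Figure D3:**
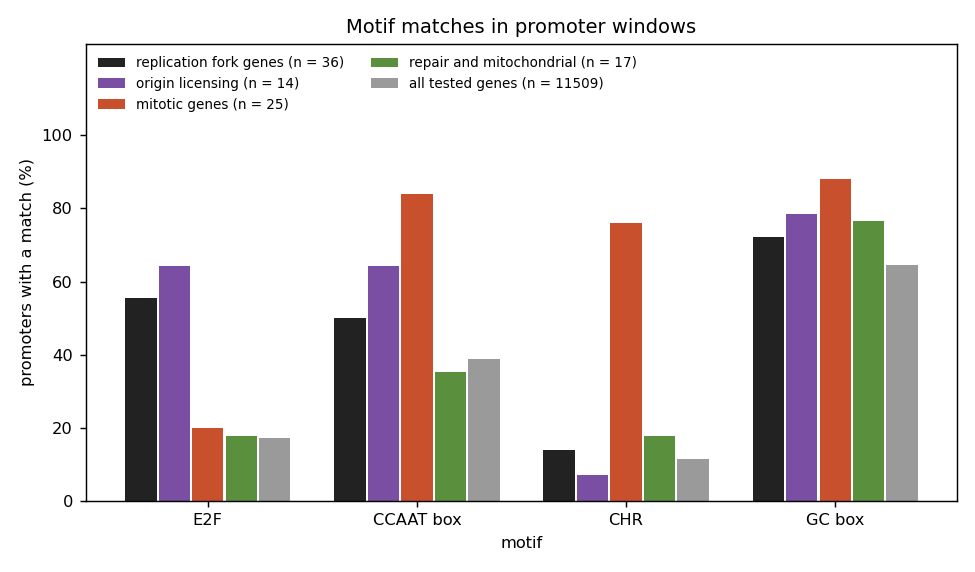
Share of promoter windows of 300 bases with at least 1 match (vertical axis, percent) for 4 motifs, in replication fork genes, 3 other gene lists and all tested genes; n is the number of windows. E2F matches were in 55.6% of windows of replication fork genes and 17.1% of those of tested genes, and CHR matches in 76% of those of mitotic genes.

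The helicase group had 5 of 6 genes higher, with a median log2 fold change of 2.49. Mcm10, which activates the assembled helicase (ENSMUSG00000026669, chr2:4989714-5012791, mm10), had 0.547, 0.426 and 0.242 FPKM in WT 3, 6 and 7 and 5.56, 7.19 and 4.93 in KO 1, 2 and 3. Its lowest KO library was thus well above its highest WT library, and the log2 fold change was 3.81 (SE 0.31, adjusted p = 0.000972 by edgeR). Cdc45, which joins MCM and GINS in the active helicase, had 1.51, 0.948 and 1.28 FPKM in WT and 11, 14.4 and 9.79 in KO. The groups were far apart here too, with a log2 fold change of 3.18 (SE 0.23, adjusted p = 0.000836 by edgeR).

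The 4 GINS subunits, which form a single complex, had unequal changes. Gins2 had 1.57, 1.16 and 1.33 FPKM in WT and 7.91, 9.23 and 8.35 in KO, a rise of 2.59 on the log2 scale (SE 0.17, adjusted p = 0.000813 by edgeR). Gins1 and Gins3 rose by 2.38 and 1.75. Gins4 (ENSMUSG00000031546, chr8:23226616-23237659) had 15.3, 15.8 and 17.6 FPKM in WT 3, 6 and 7 and 20.1, 23.4 and 21.5 in KO 1, 2 and 3. The KO values were above all WT values, but the log2 fold change was only 0.35 (SE 0.14), with an adjusted p of 0.0994 by edgeR. Gins4 was the most abundant GINS mRNA in each library: its FPKM was 4.91 to 6.9 times that of Gins1 in WT and 1.24 to 1.76 times in KO. Against Gins2 it was 9.76 to 13.6 times in WT and 2.53 to 2.58 times in KO. The Gins2 level is uncertain, since 2758 of the 3900 bases of its longest transcript are shared with Gse1 on the opposite strand. Gins4 passed with limma on log2(FPKM + 1) (adjusted p = 0.0282), on log2(FPKM + 0.1) (adjusted p = 0.0291) and with limma-voom with sample weights (adjusted p = 0.0496), but not with limma-voom without weights (adjusted p = 0.0905).

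All 5 genes that start replication were higher, with a median log2 fold change of 2.27. Ccne1, a cyclin that activates Cdk2 at the entry to S phase, had 1.86, 1.56 and 1.61 FPKM in WT and 11, 15 and 9.26 in KO. The WT libraries were close together, and the log2 fold change was 2.75 (SE 0.22, adjusted p = 0.000972 by edgeR). Its relative Ccne2 rose by 2.38, Dbf4 by 2.27 and Topbp1, a scaffold for loading Cdc45 and for checkpoint signalling, by 1.70. Cdc7, the kinase that phosphorylates MCM, had 5.96, 2.08 and 2.48 FPKM in WT and 15.2, 17.3 and 12.7 in KO. WT 3 was high among the WT libraries for this gene, by 1.38 on the log2 scale over the mean of WT 6 and WT 7, the widest gap of the 44 genes. The log2 fold change of Cdc7 was 2.06 (SE 0.38, adjusted p = 0.0091 by edgeR), and 2.63 without WT 3.

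All 9 polymerase and primase genes were higher, with a median log2 fold change of 1.84. Pole, the catalytic subunit of the leading-strand polymerase (ENSMUSG00000007080, chr5:110286306-110337474), had 0.642, 0.401 and 0.452 FPKM in WT 3, 6 and 7 and 5.16, 5.91 and 4.28 in KO 1, 2 and 3. The groups were separated by several fold, with a log2 fold change of 3.31 (SE 0.21, adjusted p = 0.000813 by edgeR). Pole2, its second subunit, rose by 2.77. Pold1, the catalytic subunit of polymerase delta, had 6.96, 3.72 and 4.39 FPKM in WT and 23.7, 30.4 and 26 in KO. WT 3 was the highest WT library, and the log2 fold change was 2.36 (SE 0.23, adjusted p = 0.00152 by edgeR). The accessory subunits of delta moved less: Pold2 rose by 1.23 and Pold3 by 0.81. Pold3 had 7.64, 5.39 and 6.56 FPKM in WT and 11, 13.5 and 11.1 in KO, which is a smaller gap between groups, at an adjusted p of 0.0106 by edgeR. Of the priming enzymes, the polymerase alpha catalytic subunit Pola1 rose by 1.84 and its partner Pola2 by 1.25. The primase subunits Prim1 and Prim2 rose by 1.91 and 1.47.

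All 6 clamp and clamp loader genes were higher, with a median log2 fold change of 1.34. Pcna, the sliding clamp that also recruits ligase, nuclease and chromatin factors (ENSMUSG00000027342, chr2:132249162-132253314), had 36.8, 35.2 and 36.7 FPKM in WT and 129, 166 and 133 in KO. The WT libraries were nearly equal, and the rise was 1.92 on the log2 scale (SE 0.13, adjusted p = 0.000813 by edgeR). The processed pseudogene Pcna-ps2 shares sequence with Pcna but had a mean count of 24.7 against 4062. Of the loader, which opens the clamp around DNA, Rfc4 had 6.01, 5.34 and 4.75 FPKM in WT and 22.3, 29.7 and 21 in KO and rose by 2.12. Rfc5 rose by 1.68, Rfc3 by 0.86 and Rfc1, the large subunit, by 0.75, while Rfc2 rose 2-fold. Rfc1 had 9.4, 9.18 and 10.1 FPKM in WT and 16, 18.6 and 15.6 in KO, so that the groups were separate although the change was small (SE 0.11, adjusted p = 0.00468 by edgeR). Rfc3 had 6.35, 5.54 and 6.58 FPKM in WT and 10.9, 14.1 and 9.98 in KO. Its groups were also separate (SE 0.17, adjusted p = 0.0106 by edgeR), but the call was lost without WT 6.

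Both genes for joining Okazaki fragments, the short pieces of the lagging strand, were higher. Lig1, the ligase, had 8.81, 4.39 and 4.52 FPKM in WT and 29, 38.6 and 32.2 in KO, with WT 3 high among the WT libraries, and its log2 fold change was 2.45 (SE 0.28, adjusted p = 0.00226 by edgeR). Fen1, the flap nuclease, had 0.564, 0.736 and 0.601 FPKM in WT and 3.82, 3.94 and 2.46 in KO, a rise of 2.35 (SE 0.30, adjusted p = 0.00286 by edgeR). The Fen1 level is uncertain, because 1911 of the 2373 bases of its longest transcript are shared with the antisense gene Gm10143. Tmem258, which overlaps Fen1 on the opposite strand, had a count of 1480% of that of Fen1.

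The 3 subunits of replication protein A (RPA), which coats single-stranded DNA, were all higher, with a median log2 fold change of 0.82, the lowest of the 10 role groups. Rpa2, the subunit known to be phosphorylated under replication stress, had 5.08, 4.49 and 6 FPKM in WT and 17.2, 20.7 and 16.5 in KO and rose by 1.74 (SE 0.16, adjusted p = 0.0014 by edgeR). Rpa1 rose by 0.82. Rpa3 had 18.2, 15.6 and 15.5 FPKM in WT and 22.3, 33 and 30.2 in KO, where KO 1 lay nearest the WT libraries. Its log2 fold change of 0.74 (SE 0.18, adjusted p = 0.0244 by edgeR) was the call lost most often, which happened without KO 2, KO 3, WT 6 or WT 7.

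All 4 fork protection and checkpoint genes were higher, with a median log2 fold change of 2.21. Clspn, encoding Claspin, which passes the ATR signal to Chk1, had 1.12, 0.603 and 0.696 FPKM in WT and 7.04, 8.32 and 5.98 in KO, a rise of 3.09 (SE 0.25, adjusted p = 0.000972 by edgeR). Timeless, which travels with the fork as a pair with Tipin, rose by 2.56 and Tipin by 1.39. Tipin had 9.59, 9.9 and 9.86 FPKM in WT and 24.6, 34 and 21.8 in KO, so the WT libraries were nearly equal and the smaller rise still separated the groups. Wdhd1, which links the helicase to polymerase alpha, rose by 1.85.

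The genes that rebuild chromatin behind the fork were higher as well. Chaf1b, a subunit of the histone chaperone CAF-1, had 1.18, 0.967 and 1.08 FPKM in WT and 7.61, 11 and 7.39 in KO, and rose by 2.95 (SE 0.21, adjusted p = 0.000836 by edgeR). Chaf1a, the large CAF-1 subunit, rose by 2.81. Slbp, whose protein binds the stem-loop of histone mRNAs, had 4.28, 3.2 and 3.17 FPKM in WT and 8.8, 11 and 8.66 in KO, a smaller rise of 1.36 (SE 0.16, adjusted p = 0.0025 by edgeR).

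All 4 nucleotide supply genes were higher, with a median log2 fold change of 2.49. Rrm2, the small subunit of ribonucleotide reductase and the one whose supply varies with the cell cycle (ENSMUSG00000020649, chr12:24708241-24714146), had 9.96, 4.82 and 3.74 FPKM in WT 3, 6 and 7 and 80, 115 and 74.5 in KO 1, 2 and 3. WT 3 stood above the other WT libraries, and every KO library lay far above all of them. The log2 fold change of 3.82 (SE 0.38, adjusted p = 0.00163 by edgeR) was the largest of the 44, and was 4.30 without WT 3. Rrm1, the large subunit, had 5.22, 4.94 and 5.45 FPKM in WT and 19.8, 25.2 and 19 in KO, and rose by 1.98 (SE 0.14, adjusted p = 0.000813 by edgeR). Tk1, the cytosolic thymidine kinase, rose by 2.94. Dut, which removes dUTP so that uracil is not built into DNA, rose by 2.03.

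Ung, the glycosylase that cuts uracil out of new DNA (ENSMUSG00000029591, chr5:114130386-114139323), had 0.562, 0.432 and 0.715 FPKM in WT and 6.65, 7.33 and 6.15 in KO, a rise of 3.49 (SE 0.23, adjusted p = 0.000813 by edgeR). Dtl, the adaptor of the ubiquitin ligase that destroys Cdt1 on PCNA-bound DNA, had 0.664, 0.39 and 0.415 FPKM in WT and 3.9, 4.8 and 3.91 in KO and rose by 3.05 (SE 0.22, adjusted p = 0.000836 by edgeR). For both genes the lowest KO value was several times the highest WT value.

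Changes of unequal size also show in the balance of mRNA within complexes. FPKM ratios were formed within each library for 21 pairs of these genes, and the KO and WT ratios did not overlap in 18 of them, against 48.3% of all pairs of tested genes with FPKM above 0 in every library. The pairs were chosen with the changes of these genes known. Rrm2 over Rrm1 was 1.91, 0.975 and 0.687 in WT 3, 6 and 7 and 4.03, 4.54 and 3.93 in KO 1, 2 and 3. The ratio was thus in favour of Rrm2 in WT 3, near equal amounts in WT 6 and in favour of Rrm1 in WT 7. It was further in favour of Rrm2 in all KO libraries than in WT 3. Pold1 over Pold3 was 0.91, 0.689 and 0.669 in WT and 2.16, 2.25 and 2.34 in KO, which turned the order of the levels. Rfc4 over Rfc1 also turned, from 0.639, 0.582 and 0.47 to 1.39, 1.6 and 1.35. Timeless over Tipin rose from 0.132 to 0.215 in WT to 0.352 to 0.388 in KO, with Tipin the higher of the pair in all libraries. The 3 pairs whose groups overlapped were Rpa3 over Rpa1 (1.05 to 1.41 in WT, 0.868 to 1.5 in KO), Cdc7 over Dbf4 (1.72 to 3.03 and 1.87 to 2.32) and Chaf1a over Chaf1b (0.652 to 0.987 and 0.689 to 0.875). These are descriptions of the deposited values, and differences between genes in fold change were not tested.

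**Figure D4:**
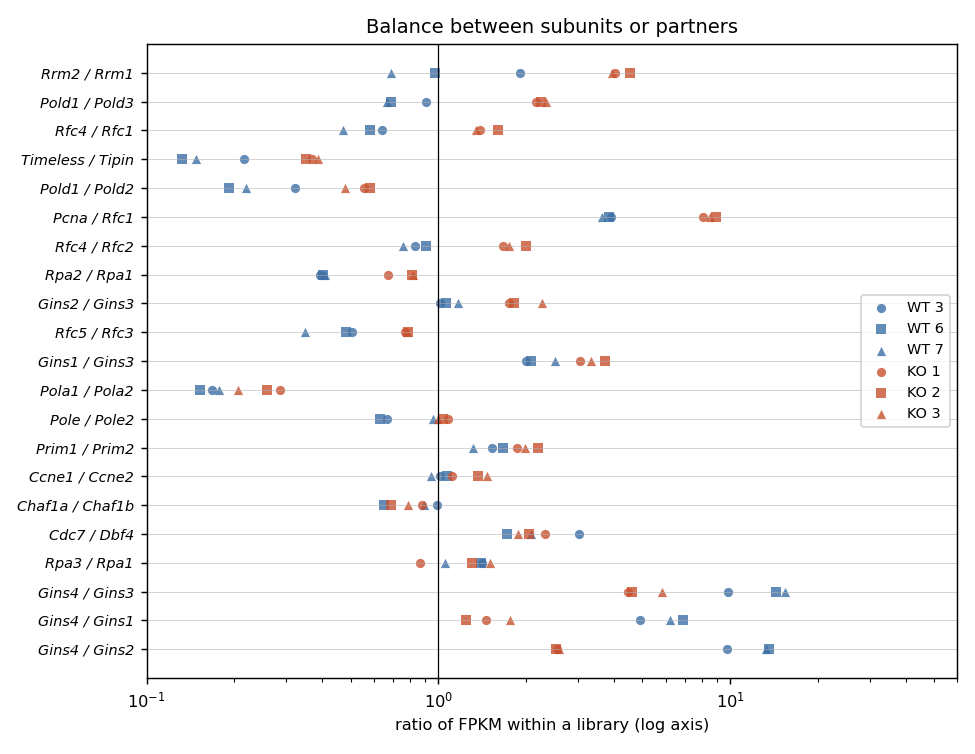
Ratio of FPKM between paired genes within each library (horizontal log axis) for 21 pairs of subunits or partners, with WT in blue and KO in orange, and the line at equal levels. The ratio of Rrm2 over Rrm1 is 3.93 to 4.54 in KO and 0.687 to 1.91 in WT, while the Gins4 ratios are lower in KO.

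Relatives of these genes that work in repair or in mitochondria were listed as counterparts. Of 24, 4 (16.7%) were higher and 2 lower, against 13.5% and 15.5% of all tested genes, with a median log2 fold change of 0.04. Exo1, an exonuclease of mismatch repair, had 0.385, 0.132 and 0.151 FPKM in WT and 3.56, 4.11 and 2.76 in KO and rose by 3.93 (SE 0.42, adjusted p = 0.00197 by edgeR), or 4.52 without WT 3. The translesion polymerase Polh rose by 1.75, and Dck and Samhd1, which make and break down deoxynucleotides, by 0.89 and 0.81. Rrm2b, the ribonucleotide reductase subunit of resting cells, had 3.25, 3.71 and 3.82 FPKM in WT and 2.57, 2.58 and 2.56 in KO, with a log2 fold change of -0.55 (SE 0.13, adjusted p = 0.0242 by edgeR). Tk2, the mitochondrial thymidine kinase, had -0.52 (SE 0.16, adjusted p = 0.0483 by edgeR). Both fell in all KO libraries relative to all WT libraries, but each kept its call in only 1 of 6 fits that left out a library.

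The levels of paired enzymes show the balance between S-phase and other forms. Rrm2 over Rrm2b was 3.07, 1.3 and 0.98 in WT 3, 6 and 7 and 31.1, 44.4 and 29 in KO 1, 2 and 3. Tk1 over Tk2 was 0.189, 0.133 and 0.144 in WT and 2.06, 1.94 and 1.29 in KO, so that the cytosolic enzyme was the less abundant mRNA in WT and the more abundant in KO. Ung over Smug1, another uracil glycosylase, was 0.0902 to 0.142 in WT and 1.19 to 1.47 in KO, and Lig1 over Lig3 was 0.683 to 1.12 and 3.61 to 4.77. Each of these pairs sets a gene that rose several fold over one that changed little or fell, so the direction follows from the choice of pairs.

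Of 49 other fork and S-phase genes, 36 (73.5%) were higher and 0 lower, against 13.5% and 15.5% of all tested genes. Their median log2 fold change was 1.47. The 6 with the lowest p were the chromatin remodeller Hells (3.05), the checkpoint kinase Chek1 (3.21), Cdca7, a partner of Hells (2.06), the nuclease Dna2 (2.17), the transcription factor Mybl2 (3.03) and the clamp loader subunit Chtf18 (2.72). The 13 that did not pass included the small polymerase subunits Pole3 (0.35) and Pold4 (-0.67), and Rnaseh2b (-0.47). Also among them were the checkpoint genes Rad1 (0.54), Rad9a (0.48), Atr (0.20), Atrip (0.04), Hus1 (-0.17) and Rad17 (0.03). Rad1 and Rad9a passed as higher without WT 3, Pold4 as lower without KO 3 and Rnaseh2b as lower without KO 2. Pole over Pole3 was 0.0185 to 0.0288 in WT and 0.142 to 0.186 in KO.

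The licensing factors, which load MCM before S phase, had 12 of 16 genes (75%) higher and 0 lower, with a median log2 fold change of 1.65. Of all tested genes, 13.5% were higher and 15.5% lower. Cdc6 had 0.544, 0.35 and 0.418 FPKM in WT and 5.95, 6.93 and 4.97 in KO and rose by 3.71 (SE 0.23, adjusted p = 0.000813 by edgeR). The other 5 with the lowest p were Mcm2 (3.02), Cdt1 (3.13), Mcm3 (3.08), Mcm6 (2.35) and Mcm5 (3.77), and those that did not pass were Mcmbp, Orc3, Orc4 and Orc5, at -0.26 to 0.33. All 30 mitotic genes were higher, with a median log2 fold change of 3.17, or 3.82 without WT 3. Mki67, a marker of dividing cells, had 6.77, 2.68 and 1.78 FPKM in WT and 38.6, 44.6 and 33.4 in KO (3.34, SE 0.47, adjusted p = 0.00402 by edgeR; 4.03 without WT 3). Top2a, which untangles sister chromatids, had 9.52, 2.96 and 2.38 in WT and 50.9, 66.5 and 50.6 in KO (3.47, SE 0.53, adjusted p = 0.00487 by edgeR; 4.30 without WT 3).

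WT 3 sat differently in the fork genes than in the mitotic genes. The mean log2 CPM of the 44 fork genes was 3.83, 3.48 and 3.60 in WT 3, 6 and 7 and 5.63, 5.96 and 5.57 in KO 1, 2 and 3, so WT 3 was 13.6% of the way from the other WT libraries to the KO mean. For the mitotic genes the means were 4.32, 3.09 and 2.80 in WT and 6.57, 6.94 and 6.56 in KO, which put WT 3 at 36.8% of the way, and for the licensing factors it was at 5.52%. The median log2 ratio of WT 3 over the mean of WT 6 and WT 7 was 0.29 for fork genes and 1.51 for mitotic genes. Among the fork genes, 11 were over 1.5 times higher in WT 3 than in the mean of WT 6 and WT 7, led by Cdc7 (1.38 on the log2 scale), Rrm2 (1.22), Lig1 (0.98) and Pole2 (0.80), and 11 were within 1.1 times of it. How many of all tested genes were over 1.5 times higher in WT 3, or within 1.1 times, was not counted. These lists were not tested against each other.

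**Figure D5:**
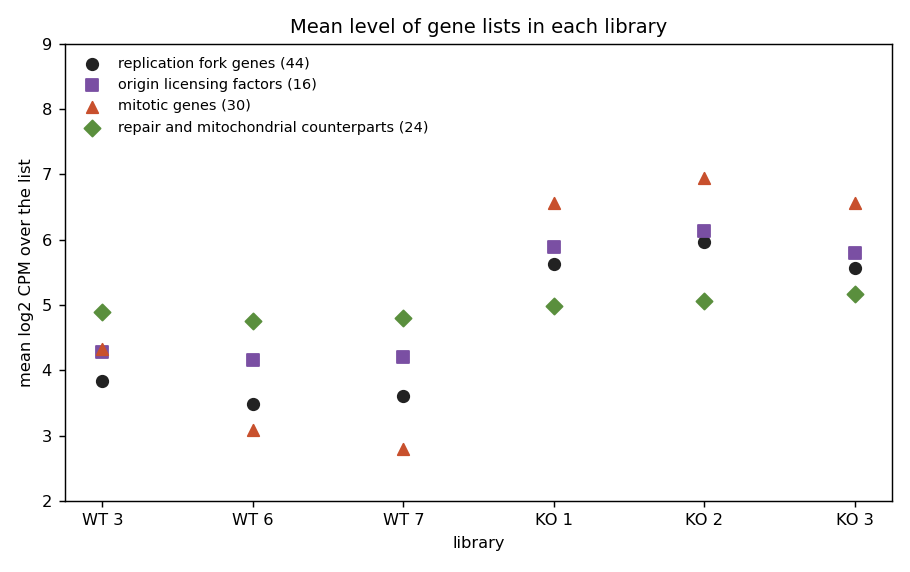
Mean log2 CPM of 4 gene lists (vertical axis; number of tested genes in brackets) in each of the 6 libraries. The fork genes are at 3.48 to 3.83 in WT and 5.57 to 5.96 in KO, and the mitotic genes are at 4.32 in WT 3 but 3.09 and 2.80 in WT 6 and WT 7.

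The 44 genes lay on 16 chromosomes. Chromosome 5 carried 9 of them (Cdc7, Dbf4, Pole, Rfc1, Rfc2, Rfc3, Rfc5, Slbp and Ung), or 20.5%, against 6.63% of tested genes, and their log2 fold changes spanned 0.75 to 3.49. Because the strand setting of the counting is not stated, reads from overlapping genes on the opposite strand cannot be told apart. For 8 of the 44 genes an overlapping gene had a count of over 10% of theirs: Cdc45, Chaf1a, Rfc4, Fen1, Ccne2, Rfc5, Gins2 and Lig1. Of the 9 overlapping genes, Wsb2, beside Rfc5, was higher (log2 fold change 0.74, adjusted p = 0.00458 by edgeR). The others did not pass. Ints8, beside Ccne2, was at 0.36 (adjusted p = 0.0696 by edgeR). Ufd1 was at -0.18, Ubxn6 at -0.47, Eif4a2 at -0.12 and Tmem258 at -0.04. Gm10143 was at -0.18, Gse1 at -0.09 and Zswim9 at -0.38. Without these 8 genes, 35 of 36 were called higher, with a median log2 fold change of 1.92.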

How the data were processed

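RNA of day 6 neurospheres (3 µg per library) was sequenced by the authors from NEBNext Ultra libraries, per the labels' protocols. Per the submitters' processing notes, the tools were HISAT2 2.0.5, featureCounts 1.5.0-p3 and a version of DESeq2 (1.16.1), with the mm10 build. Their settings, and the annotation, are not stated there. The authors deposited raw counts per gene and FPKM values, normalised for gene length and library total. The deposited FPKM gave back the counts within 0.05 reads in all but 4 of 327192 values, and in all 264 values of the 44 genes.

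Counts were fitted with edgeR 4.0.16 in R 4.3.3: TMM factors (0.961 to 1.04), filterByExpr, a two-sided quasi-likelihood F test without covariates, and Benjamini-Hochberg adjustment over 16606 genes at 0.05. The SE is the absolute log2 fold change divided by the square root of F. The script was tested on simulated data. With 3 against 3 libraries, the smallest exact permutation p is 0.1. Log2 CPM used a prior count of 2. Shared sequence was sought with blastn 2.17.0 in GENCODE M21 transcripts. Same-group libraries differed by more than sampling noise (chi-square over its degrees of freedom was 16.3 or more).

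The 44 genes, gene lists and motifs were chosen with earlier results of these data known. Values per library were given for the genes of each role with the lowest p and with the highest p or no call; of other lists, up to 6 genes with the lowest p, those that fell, Mki67 and Top2a were named, and some further genes were chosen after their values were seen. Protein motifs were not analysed here. Alternatives comprised other normalisations, filters, tests (DESeq2 1.42.0, limma 3.58.1), an FPKM scale, a stricter threshold and leaving out each library. Limma-voom without sample weights, counts per list with each library left out and the smaller sets of promoter windows were added after seeing the data.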

Additional observations from a re-analysis of the deposited data

How the results depend on the processing

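Of 836 values of the 44 genes under 13 alternatives and 6 fits that left out a library, 820 stayed on their side of the threshold, and none changed direction. The number of genes called higher was 38 to 44 under the alternatives and 41 to 43 with a library left out, and the number lower was 0 to 0. Pold3, Rfc3 and Rpa3 lost their calls at an adjusted p of 0.01, and Pold3, Rfc1, Rfc3, Rpa1 and Rpa3 against a 1.5-fold change, where 38 passed. Gins4 passed with limma on log2(FPKM + 0.1) (log2 fold change 0.41, adjusted p = 0.0291), with limma on log2(FPKM + 1) (0.39, adjusted p = 0.0282) and with limma-voom with sample weights (0.34, adjusted p = 0.0496). Without the weights, an alternative added after seeing the data, it did not (0.35, adjusted p = 0.0905). The median log2 fold change of the 44 genes was 1.81 on log2(FPKM + 1), whose pseudocount compresses low genes, and 1.93 to 2.15 with a library left out. Over all tested genes, 2240 were higher and 2572 lower; the counts were 4133 and 3919 with limma-voom and sample weights, 2689 and 2682 with limma-voom alone, 751 and 771 against a 1.5-fold change, and 894 and 934 at an adjusted p of 0.01. Leaving out single libraries gave 1027 to 3500 higher and 1151 to 3141 lower, and the pairs of counts were 1490 and 1399 (KO 1 left out), 1225 and 1294 (KO 2), 3500 and 3141 (WT 3), 1027 and 1151 (WT 6), and 1164 and 1285 (WT 7). The cause was not tested. The counterparts that fell numbered 0 to 3 over the alternatives. No paired analysis was possible because WT and KO share only replicate number 3. Total counts limit the precision for the genes under 1 FPKM in WT, such as Fen1 with 24 to 37 reads.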
